A study of Mus musculus with 22 samples.

Results

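The genes described here are 9 mouse genes that make, break down or receive prostanoids, followed in fibroblasts of mouse back skin with and without an expander. They are the cyclooxygenases Ptgs1 and Ptgs2, the terminal synthases Ptges and Ptgis, the degrading enzyme Hpgd, and the receptors Tbxa2r, Ptger2, Ptger4 and Ptgfr. They are 9 of the 55414 genes in the count table, and each was found by its symbol and had enough counts to be tested. The genes were chosen by function from a list drawn up with earlier results of EXP against CTRL in these libraries known. The drop of Tbxa2r on day 1 was among those results, so Tbxa2r is described without a test in every comparison that holds day 1 libraries. The tests of the other genes are not independent of how the list was made.

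All mice were operated on through an incision in the back skin. EXP mice received an expander hydrogel under the skin, and CTRL mice had the surgery alone, so that every comparison is between operated animals. Cells were taken from the skin on day 1 (4 CTRL and 5 EXP libraries), day 2 (3 and 3) and day 4 (4 and 3), 22 libraries in 6 groups. Live cells carrying CD34 and PDGFRα and lacking CD31, CD45, CD117 and EpCAM were sorted as fibroblasts. The labels give no strain, sex or age, and they do not say that each library came from a separate mouse, so p-values measure the spread between these libraries.

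Prostanoids are short-lived lipid signals. Phospholipases free arachidonic acid from membranes, a cyclooxygenase turns it into prostaglandin H2, and a terminal synthase turns that into a particular prostanoid, such as prostaglandin E2 (Ptges) or prostacyclin (Ptgis). The prostanoid leaves the cell, acts through a G-protein-coupled receptor on the same or a neighbouring cell, and is taken up again and oxidised by Hpgd. In skin the family is known for its part in inflammation, wound repair and hair growth, and fibroblasts are among its sources.

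The bases before the start of transcription given by RefSeq are shown for 4 genes called on at least 2 days. Ptgs2 and Ptges are among those that rose, and Ptgfr and Ptger4 among those that fell. The sequences are RefSeq's on GRCm38.p6, an older build than the mm39 named in the submitters' processing notes. They were found for 8 of the 9 genes, all but Ptgis, which was also called on 2 days. Each is the 250 bases before the start, 5′ to 3′ on the gene's strand: chr1:150099781-150100030 on the + strand for Ptgs2, chr2:30903298-30903547 on the - strand for Ptges, chr3:151837529-151837778 on the - strand for Ptgfr and chr15:5244188-5244437 on the - strand for Ptger4. Capitals mark a C/EBP motif in Ptgs2 and a TEAD motif in Ptges.
Ptgs2: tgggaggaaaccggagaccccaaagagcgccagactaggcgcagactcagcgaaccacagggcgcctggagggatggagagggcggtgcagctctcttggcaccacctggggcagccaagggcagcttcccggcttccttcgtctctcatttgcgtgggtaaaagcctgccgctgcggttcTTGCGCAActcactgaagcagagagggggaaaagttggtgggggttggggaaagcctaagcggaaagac
Ptges: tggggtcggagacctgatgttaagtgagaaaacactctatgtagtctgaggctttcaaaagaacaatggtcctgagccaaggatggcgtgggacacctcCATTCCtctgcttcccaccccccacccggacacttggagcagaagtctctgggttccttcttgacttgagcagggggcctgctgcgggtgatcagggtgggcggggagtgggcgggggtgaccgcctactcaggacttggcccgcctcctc
Ptgfr: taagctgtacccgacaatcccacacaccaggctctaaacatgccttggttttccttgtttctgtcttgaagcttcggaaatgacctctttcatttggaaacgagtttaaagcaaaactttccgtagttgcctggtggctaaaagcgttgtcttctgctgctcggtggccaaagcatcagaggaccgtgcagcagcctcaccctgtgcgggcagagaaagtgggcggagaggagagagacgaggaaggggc
Ptger4: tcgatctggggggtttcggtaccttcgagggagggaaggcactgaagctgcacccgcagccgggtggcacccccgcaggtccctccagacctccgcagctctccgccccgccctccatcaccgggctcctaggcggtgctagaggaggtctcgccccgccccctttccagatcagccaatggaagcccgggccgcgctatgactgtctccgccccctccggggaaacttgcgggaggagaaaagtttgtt

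The letters of 7 motifs were searched on both strands of the 250 bases before and 50 after each start, and the share of 32851 RefSeq windows of 300 bases that hold them is given. The Ptgs2 window held TTNNGCAA, the C/EBP motif found in 10.8% of windows, at -69 to -62, where it reads on both strands. Past the RefSeq start it held TGACGT, the half-site of the cAMP response element (7.51% of windows), on the reverse strand at 13 to 18. That match overlaps the E-box CACGTG (7.15%) at 17 to 22. In Ptges the TEAD motif GGAATG (14.7% of windows) lay on the reverse strand at -151 to -146. The windows of Ptgfr and Ptger4 held none of these letters, nor those of TATAAA (the TATA box, 13.6%), TGANTCA (AP-1, 7.81%) or GGGANNTTC (an NF-kB-like motif, 3.94%). Positions count from the starts that RefSeq gives, which were not checked against these libraries. A match is a run of letters and not evidence of binding.

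Library totals lay between 21461294 and 30210204 counts. On these totals, before TMM scaling, 3 counts, the smallest level read as detected, came to 0.0993 to 0.140 CPM. CPM, the unit of every other level here, is the count over the TMM-scaled library total. On that scale 3 counts have other values, such as 0.1071 CPM in day 4 EXP replicate 3, which was at 0.0993 CPM before scaling. The fibroblast markers were high in every library, and of the sort genes Pdgfra was higher in EXP on each day (355.8 against 638.6, 238.9 against 779.6 and 295.9 against 512.6 CPM in CTRL and EXP, log2 fold changes of 0.84, 1.71 and 0.79, all called), while Cd34 was lower (-1.74, -2.07 and -0.93, called on days 1 and 2). The summed level of the 6 fibroblast markers, mostly Col1a1 and Col1a2, was lower in EXP on day 1 (73600 to 117000 against 138000 to 191000 CPM), day 2 (48300 to 120000 against 236000 to 288000) and day 4 (40700 to 185000 against 188000 to 249000). Of the markers excluded by the sort, Ptprc (0 to 0.2431 CPM) and Kit (0 to 0.6987 CPM) were close to the floor. Epcam reached 2.089 CPM and Pecam1 3.68 CPM, neither called on any day. The sum of 5 keratinocyte markers was 7.29 to 40.2 CPM in CTRL and 2.17 to 13.5 CPM in EXP on day 1. It overlapped on days 2 and 4 too. Of these Krt10 alone was called, lower on day 1 (-2.54). The part of these markers in the results was not tested. Apart from their groups, the libraries fell into 2 sides by 192 genes that follow Rnf10 across libraries after group means are removed. The high side held 7 libraries (day 1 CTRL 1, 2 and 3, day 1 EXP 1 and 2, and day 4 CTRL 3 and 4) and the low side 15. Values within a side are given where they change a result, and the split's part in the other results was not tested.

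In day 1 CTRL fibroblasts the highest levels per kilobase of exon were those of Hpgd (68.3 ± 39.4 CPM per kb, SD, n = 4) and Ptgs2 (57.0 ± 20.9). Ptges (27.2 ± 4.58) and Ptgfr (21.5 ± 1.16) followed, then Tbxa2r (5.89 ± 1.55), Ptger4 (3.87 ± 0.323), Ptgs1 (1.60 ± 0.937) and Ptgis (0.869 ± 0.397), with Ptger2 lowest at 0.0662 ± 0.0184 CPM per kb. The libraries of neighbours in this order overlapped for Hpgd and Ptgs2, for Ptges and Ptgfr, for Tbxa2r and Ptger4, and for Ptgs1 and Ptgis. In day 4 EXP fibroblasts Ptgs2 (252 ± 91.7 CPM per kb, SD, n = 3) stood above all other members, its lowest library above the highest of any of them. It was followed by Ptges (101 ± 35.2), Hpgd (62.5 ± 30.5), Ptgis (41.3 ± 32.0), Ptgs1 (10.6 ± 6.56), Ptgfr (5.33 ± 2.83), Tbxa2r (1.83 ± 0.955), Ptger4 (1.69 ± 0.378) and Ptger2 (0.0475 ± 0.053). There each neighbouring pair overlapped from Ptges and Hpgd downwards, except Ptger4 and Ptger2.

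The fitted levels of Ptgs2, Ptges and Ptgis were above CTRL on each of the 3 days, and those of Tbxa2r, Ptger4 and Ptgfr below it, with calls that differed by day. On day 1, 4 of 8 tested members passed an adjusted p of 0.05: Ptgs2 rose, and Hpgd, Ptger4 and Ptgfr fell. Of all 17554 tested genes 28.6% were called on that day, 13.9% higher and 14.7% lower. On day 2, 3 of 9 members were called, all higher (Ptgs2, Ptges and Ptgis), against 13.4% of all genes (7.72% higher and 5.71% lower). By edgeR 0 members were called lower on day 2, as by DESeq2 and limma voom, with 3 lower at an unadjusted p under 0.05 (Hpgd, Tbxa2r and Ptger4). On day 4, 6 of 9 members were called, Ptgs1, Ptges and Ptgis higher and Tbxa2r, Ptger4 and Ptgfr lower, against 22.5% of all genes (12.8% higher and 9.66% lower). The day 4 count was 3 without CTRL replicate 3, 2 without EXP replicate 2 and 2 within the low side of the split, and the day 1 count was 1 within the low side. The median log2 fold change of the tested members was 0.18 on day 1 (without Tbxa2r), -0.58 on day 2 and -0.31 on day 4, beside 0.02, 0.02 and 0.03 over all tested genes. The plot of the members' log2 fold changes sets the enzymes beside the receptors.

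**Figure D1:**
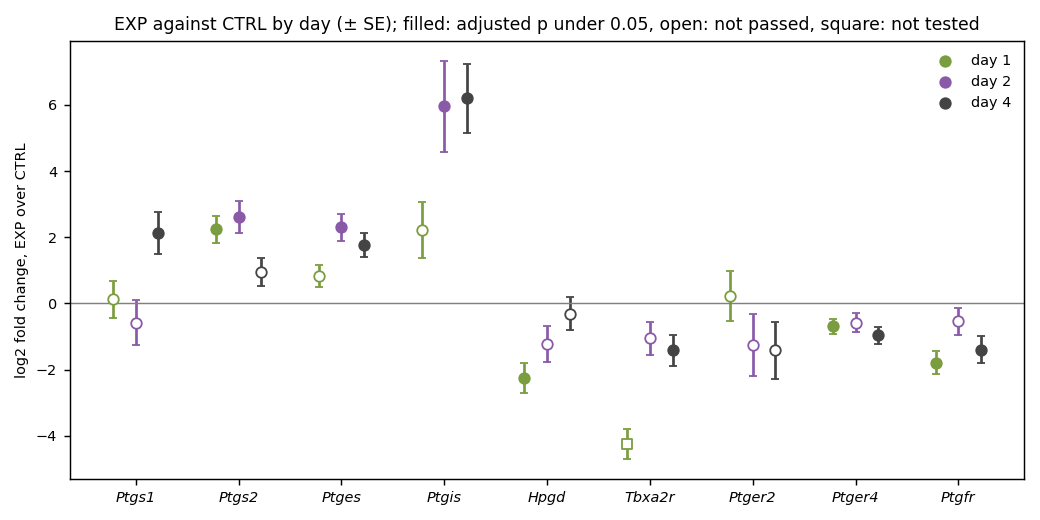
Log2 fold change of EXP over CTRL (vertical axis) for each of the 9 genes on days 1, 2 and 4, with bars of ± 1 SE from the edgeR fit of 22 libraries; filled circles passed an adjusted p of 0.05, open circles did not, and the open square is Tbxa2r on day 1, which was not tested. Ptgs2, Ptges and Ptgis lie above 0 on every day, and Tbxa2r, Ptger4 and Ptgfr lie below 0 on every day.

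Scaling by library totals in place of TMM moved the median log2 fold change of all tested genes to 0.21, 0.49 and 0.36 on days 1, 2 and 4, and the share of calls that were higher in EXP from 48.7%, 57.5% and 57.0% to 66.2%, 90.5% and 80.8%. No member changed sign under it. The calls of Ptger4 on days 1 and 4 and of Ptgfr and Tbxa2r on day 4 were lost, and Ptges and Ptgis on day 1 and Ptgs2 on day 4 then passed.

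Ptgs2, the inducible cyclooxygenase, rose in EXP on days 1 and 2. On day 1 its level was 158.5, 386.2, 273.9 and 226.3 CPM in the CTRL libraries and 1588, 852.9, 771.7, 1124 and 1819 CPM in the EXP libraries. Every EXP library was above every CTRL library, by a log2 fold change of 2.24 (adjusted p = 4.58e-04, SE 0.41). On day 2 the CTRL libraries held 212.6, 221.3 and 187.3 CPM and the EXP libraries 1607, 1153 and 1039 CPM. The groups were again apart, with a log2 fold change of 2.61 (adjusted p = 0.00188, SE 0.49). Both calls held under all alternatives run, with adjusted p of 7.67e-08 to 0.0188 on day 1 and 8.74e-07 to 0.0127 on day 2.

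On day 4 the EXP libraries were at the same height (1208, 1547 and 712.6 CPM), but the CTRL libraries were in 2 pairs, 953.3 and 915.1 CPM in replicates 1 and 2 against 267.6 and 254.3 CPM in replicates 3 and 4. The groups overlapped, and the log2 fold change of 0.95 (adjusted p = 0.114, SE 0.43) did not pass. The CTRL pairs are the same as the sides of the library split, with the higher Ptgs2 on the low side, the side of all 3 EXP libraries. Within the low side the day 4 log2 fold change was 0.30 (adjusted p = 0.642). It was 1.27 without CTRL replicate 1 (adjusted p = 0.0493), in a range of adjusted p of 0.0334 to 0.642 over the alternatives. The low side also held day 1 CTRL 4, at 226.3 CPM, and all day 2 CTRL libraries, at 187.3 to 221.3 CPM. Day 2 had no library on the high side to set beside them. The split's part in the day 4 pairs was not tested. Within the sides the day 1 log2 fold change was 2.45 (low) and 2.15 (high). The plot of Ptgs2 against the split score shows both the day 4 pairs and the day 1 libraries.

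**Figure D2:**
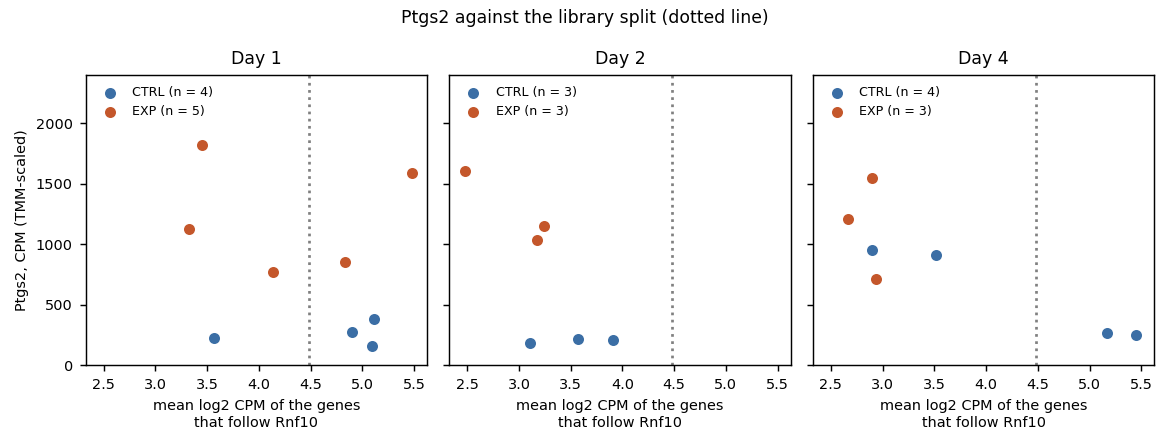
Ptgs2 level (CPM on TMM-scaled totals, linear axis) against the mean log2 CPM of the 192 genes that follow Rnf10, 1 point per library and 1 panel per day, CTRL in blue and EXP in orange; the dotted line divides the low side from the high side. The day 4 CTRL libraries at 953.3 and 915.1 CPM lie on the low side with the EXP libraries, and those at 267.6 and 254.3 CPM on the high side.

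Ptgs1, the cyclooxygenase that many tissues make at a steady low level, was low in all groups but day 4 EXP. It ranged from 3.132 to 11.49 CPM in day 1 CTRL, 1.925 to 12.02 in day 1 EXP, 2.516 to 15.10 in day 2 CTRL, 3.030 to 8.384 in day 2 EXP and 5.659 to 11.43 in day 4 CTRL. In day 4 EXP it was 62.50, 48.26 and 13.04 CPM, all above the day 4 CTRL libraries, with 1 library only a little above them. The log2 fold change was 0.12 on day 1 (adjusted p = 0.894, SE 0.57), -0.58 on day 2 (adjusted p = 0.639, SE 0.69) and 2.12 on day 4 (adjusted p = 0.0234, SE 0.64). The day 4 call did not hold without CTRL replicate 1 or 3 or EXP replicate 1 or 2 (adjusted p of 0.0518 to 0.126), nor within the low side of the split (0.152) or without a filter on low counts (0.0625), and its lowest adjusted p over the alternatives was 0.00382. Exons of Ptgs1 overlap the opposite-strand gene Gm43621, and whether reads were counted by strand is not given in the sources used here.

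**Figure D3:**
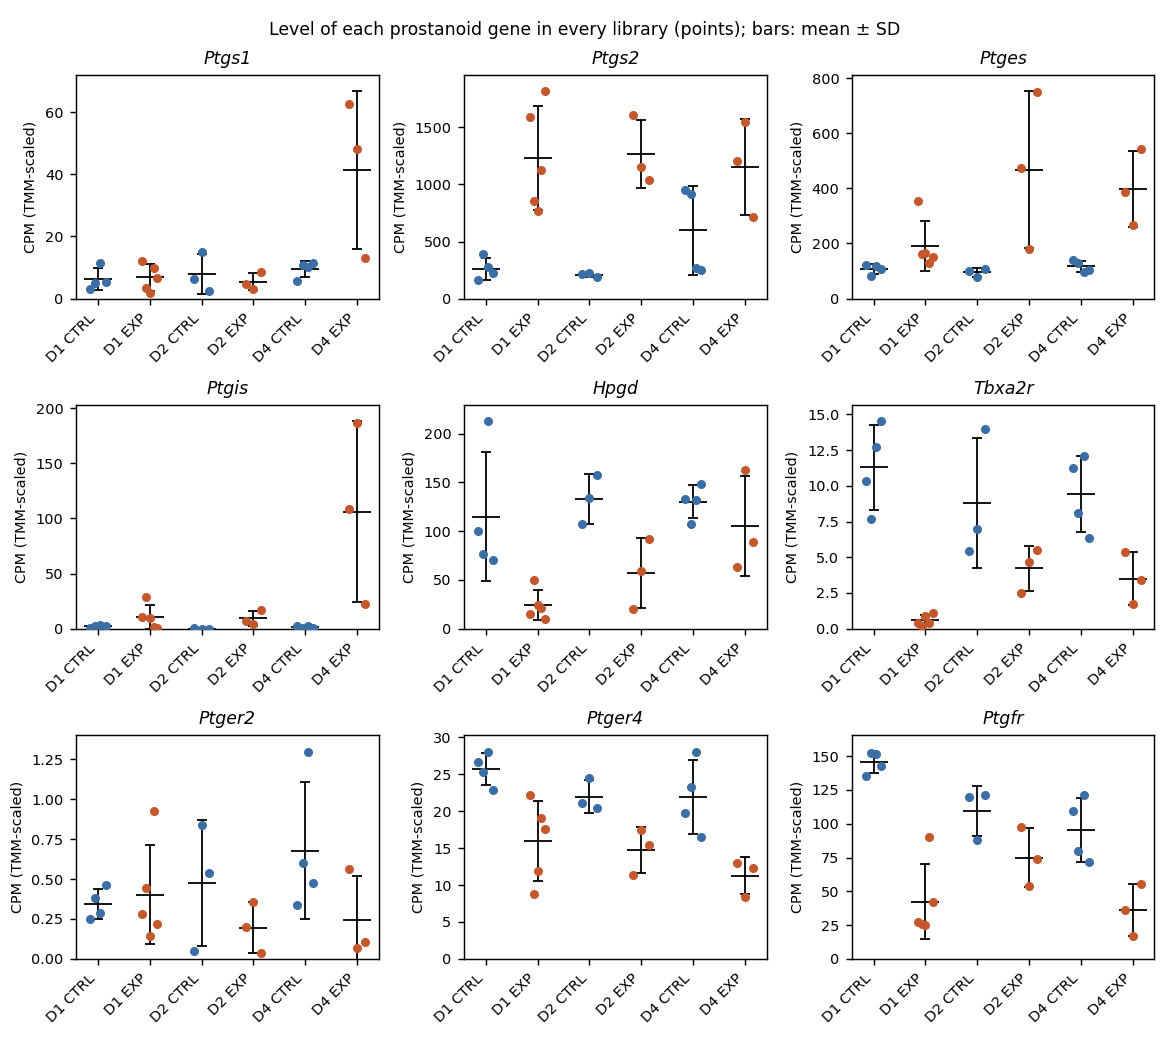
CPM on TMM-scaled totals (linear axes, 1 panel per gene with its own scale) in each of the 22 libraries by day and arm, CTRL in blue and EXP in orange; points are libraries and black bars the mean ± SD, drawn down to 0 where they would pass it. Ptgs2 reaches 1819 CPM in day 1 EXP, Ptgis reaches 186.9 CPM in day 4 EXP against at most 2.564 CPM in day 4 CTRL, and the 5 day 1 EXP libraries of Tbxa2r lie at 0.1616 to 1.131 CPM.

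Markers of myeloid cells went in both directions. Of 8 macrophage and monocyte markers, Cd68 was called higher in EXP on days 1 and 2 (log2 fold changes of 1.36 and 1.86) and not on day 4 (0.33). Cd14 was called higher on all 3 days (0.85, 1.18 and 1.34). Csf1r was below 0 on each day (-1.12, -1.19 and -0.57) and called on day 1. Tyrobp (-1.25, -1.02 and -0.96), Lyz2 (-0.515, -0.057 and 0.528) and Fcer1g (0.13, 0.27 and 0.12) were not called. Over all libraries Cd68 was at 1.425 to 24.92 CPM, Cd14 at 11.61 to 87.06 and Csf1r at 14.43 to 158.2, whereas Ptprc and Adgre1 had no count in 16 and 17 libraries and stayed under 0.25 CPM. The summed level of the 8 overlapped between CTRL and EXP on each day (63.2 to 111 and 63.9 to 89.9 CPM on day 1, 139 to 182 and 99.3 to 172 on day 2, 123 to 159 and 76.1 to 181 on day 4). Of the 5 neutrophil markers S100a8 reached 4.742 CPM in EXP and at most 0.05224 CPM in CTRL, and each of the other 4 was at 3 counts or fewer in at least 14 libraries. Their part in the Ptgs2 and Ptges results was not tested.

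The synthases were led by Ptges, the inducible microsomal enzyme that turns prostaglandin H2 into prostaglandin E2. Its CTRL libraries stayed between 77.10 and 139.8 CPM on all days. The EXP libraries held 353.3, 162.1, 165.9, 128.2 and 149.2 CPM on day 1, 475.2, 178.5 and 749.7 CPM on day 2, and 385.2, 267.6 and 543.5 CPM on day 4. On each day every EXP library was above every CTRL library. The log2 fold change was 0.84 on day 1 (SE 0.33), which did not pass (adjusted p = 0.062), 2.30 on day 2 (adjusted p = 0.00138, SE 0.42) and 1.76 on day 4 (adjusted p = 0.00331, SE 0.37). On day 1 it passed with DESeq2 (adjusted p = 0.0395), in a range of 0.0246 to 0.698 over the alternatives, and on day 4 the call was lost within the low side of the split alone (1.56, adjusted p = 0.0599). The spread among EXP libraries was wide, with day 2 replicate 2 at 178.5 CPM near the level of most day 1 EXP libraries.

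Ptgis, prostacyclin synthase, had the largest fold changes of the 9 genes on days 2 and 4. Its CTRL level was low, and close to the floor on day 2. The day 1 CTRL libraries held 0.9067, 2.500, 3.364 and 2.146 CPM and the EXP libraries 10.87, 28.48, 10.13, 1.974 and 0.8388 CPM. EXP replicates 4 and 5 were thus inside the CTRL range, and the log2 fold change of 2.22 (adjusted p = 0.0546, SE 0.84) did not pass. Without EXP replicate 4 or 5 it passed (adjusted p = 0.0306 and 0.0218, of a range of 0.0203 to 0.784 over the alternatives), and it was 3.12 on the high side of the split and 1.00 on the low side, which holds replicates 3, 4 and 5.

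On day 2 Ptgis had 7, 2 and 0 counts in the CTRL libraries and 207, 105 and 458 in the EXP libraries, which is 0 to 0.3485 against 4.132 to 17.37 CPM. The fitted log2 fold change was 5.96 (adjusted p = 0.00835, SE 1.38), and its size rests on a CTRL group of so few counts. On day 4 the CTRL libraries held 2.564, 0.7723, 2.012 and 0.4329 CPM and the EXP libraries 108.5, 186.9 and 22.71 CPM, all far above them, with a log2 fold change of 6.20 (adjusted p = 8.34e-04, SE 1.04). Both calls held under the alternatives run (adjusted p up to 0.0453 on day 2 and 0.0403 on day 4). Exons of Ptgis overlap the opposite-strand gene 1110018N20Rik.

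Markers of fat cells and of endothelium moved with the day 4 EXP libraries as well. The summed level of 4 adipocyte markers was 0.0429 to 0.580 CPM in day 4 CTRL and 0.698, 33.2 and 122 CPM in day 4 EXP replicates 1, 2 and 3. The 3 markers that could be tested (Adipoq, Cidec and Plin1) were at 3 counts or fewer in 12, 15 and 16 of the 22 libraries. They passed the filter largely through EXP libraries where they were high, so their calls are left out. In the same replicates 1, 2 and 3, Ptgs1 was at 62.50, 48.26 and 13.04 CPM. Ptgis was at 108.5, 186.9 and 22.71 CPM, highest in replicate 2. In day 2 EXP the sum was 1.93 to 27.1 CPM, against 0 to 0.404 in CTRL. On day 1 the higher values were in CTRL, with 0 to 4.94 CPM against 0 to 0.0808 CPM in EXP. Adipoq had no count in 8 of the 22 libraries and Lep in 17. The sum of 5 endothelial markers was 0.168 to 2.79 CPM in day 4 CTRL and 2.28, 8.85 and 6.82 CPM in day 4 EXP replicates 1, 2 and 3, of which replicate 1 was inside the CTRL range. Of the 4 endothelial markers tested, Kdr (3.11) was called higher on day 4. Emcn (5.09) was at 3 counts or fewer in 17 libraries and could be tested only through a few, so its call is left out. On day 2 the sum was 0 to 0.522 CPM in CTRL and 0.669 to 2.18 CPM in EXP, with Kdr called higher (3.72), and Cdh5 had no count in 10 libraries. Their part in the Ptgs1 and Ptgis results was not tested. In bulk RNA, more cells of a type and more RNA per cell cannot be told apart.

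Hpgd, which oxidises prostaglandins and ends their action, fell in EXP on day 1 and was closer to CTRL on later days. The day 1 libraries held 100.2, 76.83, 212.5 and 69.97 CPM in CTRL and 15.58, 49.97, 24.70, 20.73 and 10.32 CPM in EXP. The groups did not overlap, and the log2 fold change was -2.24 (adjusted p = 0.00109, SE 0.45). On day 2 the libraries held 107.0, 134.1 and 157.8 CPM in CTRL and 20.50, 59.10 and 92.00 CPM in EXP, again apart, but the change of -1.22 (adjusted p = 0.146, SE 0.54) did not pass. On day 4 they held 133.4, 107.4, 131.4 and 148.0 against 63.60, 162.5 and 89.25 CPM and overlapped (-0.31, adjusted p = 0.699, SE 0.50). The day 1 fall kept its size within each side of the split, -1.91 on the low side and -1.99 on the high side, where it was not called (adjusted p = 0.126 and 0.0564, of a range from 2.24e-06 over the alternatives).

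Among the receptors Tbxa2r, the thromboxane receptor, had the largest drop of the 9 genes on day 1. The day 1 libraries held 10.35, 7.671, 12.71 and 14.52 CPM in CTRL and 0.4192, 0.1616, 0.8716, 0.3821 and 1.131 CPM in EXP, or 181 to 379 against 4 to 31 counts. The log2 fold change of -4.24 (SE 0.46) is a description, since this drop was known when the genes were listed. On day 2 the libraries held 5.427, 7.0 and 13.97 CPM in CTRL and 2.476, 4.682 and 5.539 CPM in EXP. They overlapped, and the change of -1.06 (adjusted p = 0.166, SE 0.50) did not pass. On day 4 CTRL held 11.22, 8.109, 12.07 and 6.320 CPM and EXP 5.394, 1.736 and 3.393 CPM, with no overlap and a log2 fold change of -1.42 (adjusted p = 0.0372, SE 0.48). This call was lost without CTRL replicate 1 or 3 or EXP replicate 2 or 3, within the low side of the split, without a filter on low counts and in a fit of day 4 alone, with adjusted p of 0.00865 to 0.162 over the alternatives. From day 1 to day 2 the EXP level differed by 2.82 on the log2 scale (SE 0.46), while the CTRL level differed by -0.36 (SE 0.46), both given as values with no test.

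Ptgfr, the receptor of prostaglandin F2α, fell on days 1 and 4. The day 1 CTRL libraries held 135.6, 152.1, 151.6 and 142.8 CPM and the EXP libraries 27.57, 25.69, 25.24, 90.25 and 42.16 CPM. The groups were apart, EXP replicate 4 standing well above the other EXP libraries, and the log2 fold change was -1.79 (adjusted p = 8.27e-04, SE 0.35). It was called on the high side of the split (-2.47) and not on the low side (-1.44, adjusted p = 0.214), where replicate 4 lies. On day 2 the libraries held 119.4, 87.92 and 120.9 CPM in CTRL and 97.28, 54.14 and 73.60 CPM in EXP and overlapped (-0.54, adjusted p = 0.428, SE 0.42). On day 4 CTRL held 109.7, 79.80, 120.9 and 71.60 CPM and EXP 36.15, 16.94 and 55.35 CPM, with no overlap and a change of -1.40 (adjusted p = 0.0201, SE 0.41). That call was lost without CTRL replicate 3 or EXP replicate 1 or 2, within the low side, without a filter on low counts and in a fit of day 4 alone, with adjusted p of 0.00316 to 0.118 over the alternatives. Exons of Ptgfr overlap the opposite-strand gene Gm43618.

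Of the prostaglandin E2 receptors, Ptger4, which couples to cAMP production, fell on days 1 and 4. The day 1 libraries held 26.63, 25.34, 27.95 and 22.92 CPM in CTRL and 22.22, 8.847, 11.95, 19.11 and 17.61 CPM in EXP, with no overlap and a log2 fold change of -0.69 (adjusted p = 0.025, SE 0.22). On day 2 they held 21.06, 24.50 and 20.40 against 11.36, 17.43 and 15.44 CPM, again apart, but the change of -0.58 (adjusted p = 0.174, SE 0.28) did not pass. On day 4 CTRL held 19.69, 23.34, 28.08 and 16.54 CPM and EXP 13.01, 8.368 and 12.36 CPM, also apart, with a change of -0.96 (adjusted p = 0.0137, SE 0.26). The day 1 call was lost without CTRL replicate 1 or 3 or EXP replicate 2 or 3 and within either side of the split (adjusted p of 0.00741 to 0.427 over the alternatives), and the day 4 call without EXP replicate 2 (0.0762, of 0.00312 to 0.110) and in a fit of day 4 alone (0.0541). Exons of Ptger4 overlap the opposite-strand genes Gm15937 and Ttc33.

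Ptger2, the other prostaglandin E2 receptor that raises cAMP, was barely detected. Its libraries held 1 to 31 counts, 0.03794 to 1.299 CPM, and the groups overlapped on every day. The log2 fold changes of 0.23, -1.25 and -1.41 on days 1, 2 and 4 had SEs of 0.75, 0.94 and 0.87, and a difference was not detectable at this depth. Exons of Ptger2 overlap the opposite-strand genes Gm17173 and Gm49364.

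Smooth-muscle cells and pericytes also carry prostanoid receptors, and the summed level of their markers was below CTRL in EXP on days 1 and 2 and overlapped it on day 4. The summed level of 5 markers was 42.2 to 81.2 CPM in CTRL and 12.0 to 40.8 CPM in EXP on day 1, 72.1 to 86.0 against 22.7 to 44.6 CPM on day 2, and 35.4 to 99.8 against 16.6 to 53.3 CPM on day 4. Of the 5 genes Abcc9 alone was called, on day 1 (-1.71). The sum was mostly Abcc9 (3.173 to 50.60 CPM) and Kcnj8 (1.825 to 46.75 CPM), whose log2 fold changes were below 0 on each day. Notch3 (0.16, -0.45 and 0.75) and Rgs5 (-0.98, 1.88 and 0.38) had values of both signs, none called. Myh11 had no count in 10 libraries and Rgs5 in 3. Of the markers of platelets, cells in which Tbxa2r is well known, Itga2b was at 6.041 to 30.46 CPM. Its log2 fold changes were 0.67, -1.51 and -0.65 on days 1, 2 and 4, called on day 2 alone. The other 4 were at 3 counts or fewer in 14 to 22 libraries. Of these Ppbp alone could be tested, with log2 fold changes of 2.92, 4.59 and 7.78 on days 1, 2 and 4. It was at 3 counts or fewer in 18 libraries and could be tested only through the few others, so its call is left out. The part of these markers in the receptor results was not tested.

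Whether the EXP effect itself differed between days was tested over the 8 members other than Tbxa2r. By edgeR 0 passed, against 8.82% of all genes, with 5 at an unadjusted p under 0.05 (Ptgs1, Ptgs2, Ptges, Ptgis and Hpgd, lowest adjusted p = 0.0754 for Ptgis), while DESeq2 and limma voom called 2 each. Leaving out a library gave 2 calls without day 1 EXP 2 or day 4 EXP 3 and 1 without day 1 EXP 1 or 4 or day 2 EXP 2. A call on 1 day and not on another is therefore not shown to be a difference between days for these genes. Within CTRL, 0 of the 8 were called over the days, against 0.291% of all genes. Ptgs2 and Ptgis had an unadjusted p under 0.05 (adjusted p = 0.146 and 0.324), and DESeq2 and limma voom called 1 each. Within EXP, 4 of 8 were called over the days against 14.3% of all genes: Ptgs1 (adjusted p = 0.00493), Ptges (0.0296), Ptgis (0.00971) and Hpgd (0.0148). The count was 2 without day 4 EXP 2. Ptgs1 and Ptgis were highest on day 4, with differences of 2.95 (SE 0.73) and 3.49 (SE 1.01) on the log2 scale from day 2, Ptges was higher by 1.29 (SE 0.35) on day 2 than on day 1, and Hpgd was higher by 2.12 (SE 0.47) on day 4 than on day 1. Day and any batch of processing that followed the days cannot be told apart.

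The other genes of the pathway were 49 genes, of which 34 passed the filter on low counts. Ltc4s passed it through day 4 EXP alone and is left out of the counts. Of the other 33, 2 rose and 8 fell on day 1, 5 rose and 7 fell on day 2, and 4 rose and 13 fell on day 4. These are 30.3%, 36.4% and 51.5% of the 33, beside 28.6%, 13.4% and 22.5% of all tested genes, so the day 1 count is near the share of all genes. The median log2 fold change of the 33 was -0.27, -0.49 and -0.32. On library totals the balance moved to 2 higher and 4 lower on day 1, 8 and 3 on day 2, and 7 and 11 on day 4. These genes too were listed with earlier results of the data known, so their counts are not independent of those results.

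Upstream of the cyclooxygenases stands Pla2g4a, the cytosolic phospholipase A2 that frees arachidonic acid, which rose on all 3 days. It went from 14.97 ± 3.86 CPM in CTRL (SD, n = 4) to 36.0 ± 10.1 in EXP (n = 5) on day 1, from 9.87 ± 2.36 to 71.8 ± 41.9 (n = 3 each) on day 2, and from 17.9 ± 3.17 (n = 4) to 36.6 ± 12.8 (n = 3) on day 4. The log2 fold changes were 1.27 (adjusted p = 0.00423), 2.86 (1.58e-04) and 1.03 (0.0338), and the difference between days passed (adjusted p = 0.0404). Mgll, a lipase of monoacylglycerols that can also supply arachidonate, was called on days 2 and 4 (2.54 and 2.61), where it rose from 1.65 ± 0.306 to 9.66 ± 3.69 CPM (n = 3 each) and from 5.02 ± 2.64 (n = 4) to 30.6 ± 22.2 CPM (n = 3). Pla2g5, a secreted phospholipase, and Faah, which breaks down fatty acid amides, fell on day 4 (-2.25 and -2.34), Pla2g6 fell on day 1 with overlapping libraries (-0.63, a call lost on library totals), and Pla2g2d and Pla2g2e were not called on any day.

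Of the remaining synthases 1 was called, on 1 day. Cbr1, a carbonyl reductase able to act on prostaglandin E2, fell on day 1 (-0.62, adjusted p = 0.0231), which was lost on library totals (-0.41). Ptges2 and Ptges3, the other enzymes named as prostaglandin E synthases, had log2 fold changes of -0.43, -0.58 and -2.13 and of 0.24, 0.49 and 0.08 and were not called on any day, nor were Akr1b3 (-0.09, 0.13 and 0.65), Prxl2b (-0.11, -0.24 and -0.05) and Gstm5 (-0.53, -0.14 and 0.21). With other scalings 3 of them passed: Ptges2 on day 4 with DESeq2 size factors (-2.16), and Ptges3 on day 2 (0.95) and Akr1b3 on day 4 (1.00) on library totals. Thromboxane synthase Tbxas1 was at 0 to 18 counts, the prostaglandin D synthase Ptgds at 0 to 4 and Hpgds at 0 to 22, too few to test.

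In uptake and export, Slco2a1 and Abcc4 moved in opposite directions. Slco2a1, the transporter that takes prostaglandins into cells for breakdown, rose on day 2 (2.66, adjusted p = 0.00521, SE 0.57) and day 4 (2.77, adjusted p = 0.00165, SE 0.51), from 9.13 ± 2.36 to 57.6 ± 29.7 CPM and from 12.0 ± 3.54 to 81.9 ± 34.3 CPM. Abcc4, a pump that can carry prostaglandins out of cells, fell on all 3 days (-1.34, -1.49 and -1.43, adjusted p = 0.00284, 0.0133 and 0.00981). Its level was 101 ± 26.9 CPM in day 1 CTRL and 39.8 ± 6.50 CPM in day 1 EXP. Of the enzymes that act after Hpgd or beside it, Ptgr2 fell on day 1 (-0.90) and Zadh2 rose on day 4 (0.66), and Ptgr1 was not called. On library totals Ptgr1 passed on days 2 and 4 (0.80 and 0.83) and Zadh2 also on day 2 (1.19).

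Both other prostanoid receptors with enough counts were called. Ptger3, the prostaglandin E2 receptor that lowers cAMP, fell on day 1 from 23.2 ± 5.75 to 6.09 ± 1.41 CPM (-1.93, adjusted p = 0.00118, SE 0.39) and rose on day 2 from 10.2 ± 3.89 to 35.9 ± 9.03 CPM (1.82, adjusted p = 0.0171, SE 0.49). On day 4 it was at 12.0 ± 1.53 and 19.0 ± 18.2 CPM (0.67, adjusted p = 0.284), and the difference of the EXP effect between days passed (adjusted p = 0.00212). Ptgir, the prostacyclin receptor, rose on days 1 and 2 (1.27 and 2.35, adjusted p = 0.0059 and 9.79e-04), from 14.7 ± 6.58 to 35.5 ± 14.5 CPM and from 8.47 ± 2.38 to 43.3 ± 9.72 CPM, and was at 16.2 ± 4.71 and 20.6 ± 6.45 CPM on day 4 (0.35, adjusted p = 0.503). Ptger1, Ptgdr and Ptgdr2 had at most 8, 1 and 7 counts in a library.

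**Figure D4:**
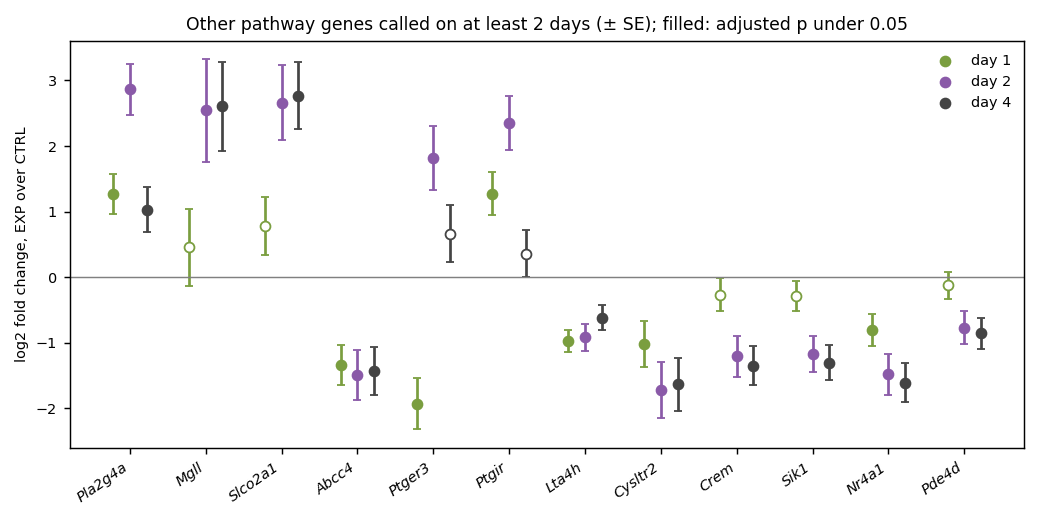
Log2 fold change of EXP over CTRL on days 1, 2 and 4 (± SE, edgeR) for the 12 other pathway genes called on at least 2 days; filled circles passed an adjusted p of 0.05 and open circles did not. Pla2g4a lies above 0 and Abcc4, Lta4h, Cysltr2 and Nr4a1 below 0 with a call on each day, and Ptger3 is at -1.93 on day 1 and 1.82 on day 2.

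In the leukotriene branch, which draws on the same arachidonate, Lta4h, the hydrolase that makes leukotriene B4, fell on all 3 days (-0.97, -0.92 and -0.62, adjusted p = 2.58e-04, 0.00619 and 0.0281), and its calls on days 2 and 4 were lost on library totals. Cysltr2, a cysteinyl leukotriene receptor, fell on all 3 days (-1.02, -1.71 and -1.63) at 10 to 66 counts a library, the day 1 call again not on library totals. Ltc4s, leukotriene C4 synthase, had 0 counts in the 4 day 4 CTRL libraries and 13 to 67 in the 3 EXP libraries, and at most 7 in any other library. The lipoxygenases Alox5, Alox12 and Alox15 stayed at or under 6, 8 and 6 counts a library.

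Genes that cAMP is known to induce, the signal below Ptger2, Ptger4 and Ptgir, were lower in EXP on the later days. Of 10 genes 1 was called lower on day 1, 4 on day 2 and 8 on day 4, where 14.7%, 5.71% and 9.66% of all tested genes were, and by edgeR with TMM 0 were called higher on any day (before adjustment, Areg alone was higher at a p under 0.05, on day 4). The median log2 fold change of the 10 was -0.27, -1.05 and -1.32. Nr4a1, a nuclear receptor of the early response, fell on all 3 days (-0.80, -1.48 and -1.61), and its level on day 4 was 1380 ± 192 CPM in CTRL and 452 ± 148 CPM in EXP. Crem (-1.21 and -1.35), Sik1 (-1.17 and -1.30) and Pde4d (-0.77 and -0.85) fell on days 2 and 4. On library totals the calls of Nr4a1 on day 1, of Crem and Sik1 on day 2 and of Pde4d on both days were lost, leaving 0, 1 and 7 of the 10 lower, and Areg was called higher on day 4 (3.68). The list was drawn up with earlier results of these data known, so its counts are not independent of them. A link between these genes and the receptors was not tested.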

How the data were processed

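The values deposited by the authors are raw counts, in a table of Ensembl genes by 22 libraries. Trimmomatic and the mm39 build are named in the submitters' processing notes. The aligner, the counting tool, the annotation and strandedness are not given in the sources used here, so counts of genes with overlapping exons are uncertain. Per the labels' protocols, sequencing was paired-end on ultra-low-input libraries. Symbols, exon lengths and overlaps came from GENCODE M21, which named 52081 of 55414 genes. Replicates differed beyond sampling noise (26.7 to 403 chi-square units for each degree of freedom), and intervals from counts would cover counting error only.

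The counts entered edgeR 4.0.16 (under R 4.3.3) unchanged. After filterByExpr with a minimum count of 10 there were 17554 genes, which were scaled by TMM and fitted together with 1 mean per group (robust quasi-likelihood, 16 residual degrees of freedom). P-values were adjusted by Benjamini-Hochberg over all tested genes, separately for every contrast. Called means an adjusted p under 0.05. The members and gene lists were chosen with earlier results of these data known. All 9 members were named, and of the other pathway genes those called on 2 or more days and every receptor and synthase. Other genes of the lists named beside these were chosen after their values were seen. The scripts were tested on simulated data. Alternatives were DESeq2 1.42.0, its size factors, library totals, no filter, a replicate block, the library split, single days, a fold minimum, limma voom (3.58.1) and leaving out each library.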

Additional observations from a re-analysis of the deposited data

Results flagged for a closer look

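In 2 of the 27 groups of 4 or 5 values examined, a library stood far from the others of its group by Dixon's gap test, where chance would give 1.35 (1 group in 20). Ptges was at 353.3 CPM in day 1 EXP replicate 1, while the other 4 EXP libraries of that day held 128.2 to 165.9 CPM. Ptgfr was at 90.25 CPM in day 1 EXP replicate 4, while the other 4 held 25.24 to 42.16 CPM. Without that library the Ptgfr change of day 1 was the largest of those obtained by leaving out a library, a log2 fold change of -2.26, and without replicate 1 that of Ptges was 0.53, the smallest of them.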

How the results depend on the processing

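Ptgs2 on days 1 and 2, Ptges on day 2 and Ptgis on days 2 and 4 kept their direction and their call under every alternative run. The number of members called on day 1 (4) was 1 within the low side of the library split and 3 to 6 when a library was left out, and on day 2 (3) it was 3 throughout. On day 4 (6) it was 3 without a filter on low counts, 3 in a fit of that day's libraries and 2 within the low side, and 2 to 6 when a library was left out. The high side could not give days 2 and 4, where it held no EXP library. For the day-dependent effect (0) DESeq2 and limma voom gave 2, and leaving out a library gave 0 to 2. Within CTRL over days (0) both gave 1, and leaving out a library gave 0. Within EXP (4) leaving out a library gave 2 to 4. The other pathway genes called on day 1 (10) were 6 on library totals. The causes were not tested. Of changes that were not called, that of Ptgs1 on day 1 (0.12) turned to -0.098 without CTRL replicate 1, -0.16 without EXP replicate 1 and -0.059 without EXP replicate 4 (0.603 at most, without CTRL replicate 3), and on day 2 (-0.58) to 0.048 with limma voom and 0.266 without CTRL replicate 2 (-1.079 at the other end). Ptger2 on day 1 (0.23) turned to -0.088 within the low side and -0.33 without EXP replicate 4 (0.454 at most). Tbxa2r on day 1 (-4.24) was -5.11 within the high side. Same-numbered CTRL and EXP libraries share only a number: their deviations from the group means correlated at -0.066 to 0.164. With the replicate block, 4, 3 and 5 members were called on days 1, 2 and 4. The block ended the day 4 call of Ptgs1 (2.01, adjusted p = 0.193) and turned its day 1 change to -0.004. At this depth 3 counts are 0.0993 to 0.140 CPM on library totals before TMM scaling. This floor of 3 counts limits Ptger2 and the day 2 CTRL libraries of Ptgis.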

Other observations

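The genes whose levels most resembled a member's over the 22 libraries were read from Pearson's r of log2 CPM among the 9823 tested genes that averaged 5 CPM or more, as a description without a test, since the libraries share the EXP and CTRL groups. Ptgs2 was most like Ier3, an early-response gene (r = 0.902), and Acat2 (0.894), an enzyme of sterol synthesis. Ptges was most like Mmp13, a collagenase (0.887). Ptgis was most like Sulf1, which trims heparan sulfate (0.951), Cxcl14, a chemokine (0.922), and Plod2, a collagen lysyl hydroxylase (0.914). Hpgd was most like Ldb2 (0.922), Tbxa2r like Bace1 (0.917), Ptgfr like Meis1 (0.904) and Ptger4 like Wnt5a (0.894). Ptgs1 had no partner above 0.784 (Flnc) and the barely detected Ptger2 none above 0.700 (Ylpm1).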
